A study of Homo sapiens with 2 samples.

Results

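Glycolysis and hypoxia-response genes were followed in RNA bound to Argonaute2 (Ago2), the effector protein of microRNA silencing, which is loaded with a microRNA and binds its target mRNAs. The set was 43 listed genes: enzymes of glycolysis, glucose and lactate transporters, the PFKFB and PDK regulators of the pathway, subunits of the hypoxia-inducible factor (HIF) and HIF target genes outside glycolysis. A gene was measured if a probe set of the array carried its symbol alone, which held for 39 of the 43, out of 18417 genes measured in this way in all. PGAM1 has only probe sets that also carry PGAM4, and SLC16A1, SLC16A3 and CA9 were not analysed here. The cells were A549, an established human lung adenocarcinoma line. The miR-130b group was 1 array of Ago2-precipitated RNA from A549 cells overexpressing miR-130b, and the empty-vector group was 1 array from A549 cells transfected with an empty vector. The construct, the time after transfection and the culture conditions, oxygen included, are not stated in the sources used here. The extraction protocol in the labels speaks of excised tissue, although both samples are labelled as a cell line.

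With 1 array per group, no value below has a replicate error and no test was possible. Levels are log2 signals, and each difference is the miR-130b level minus the empty-vector level. RNA from before the precipitation and mock precipitates were not among the data, so more of an mRNA in the cells and more of it on Ago2 cannot be told apart. As a measure of disagreement within the arrays, the differences of separate probe sets of 1 gene had a pooled SD of 0.16. It was taken over 356 genes with a mean at or above the median level of named genes. This SD leaves out the spread between cultures and precipitations. All but 1 of the measured genes, TPI1, rested on a single probe set.

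Glycolysis splits glucose into pyruvate, and cells that convert most of the pyruvate to lactate need transporters for glucose on the way in and for lactate on the way out. Pyruvate dehydrogenase kinases (PDKs) switch off the complex that feeds pyruvate into mitochondria, and the bifunctional PFKFB enzymes make and remove the sugar phosphate that activates phosphofructokinase. When oxygen is short, the alpha subunits of HIF escape the prolyl hydroxylases that mark them for destruction, pair with ARNT, and induce glycolytic genes together with genes for blood vessel growth, pH control and mitophagy. Lung carcinoma lines in culture are known for strong glycolysis.

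The microRNA overexpressed in the miR-130b cells pairs with mRNAs mainly through its seed, bases 2 to 8 of the mature strand. The mature strands of the MIR130B hairpin are shown first, because the 3p strand defines the seed. Some of the other human microRNAs with that seed follow for comparison, and the list is not complete. Sequences are from RefSeq (GRCh38.p14), 5′ to 3′, with the seed in capitals. MIR130B lies on the plus strand, with its 3p strand at chr22:21653354-21653375 and its 5p strand at chr22:21653316-21653336.
hsa-miR-130b-3p: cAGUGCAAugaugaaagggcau
hsa-miR-130b-5p: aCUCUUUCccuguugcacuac
hsa-miR-301a-3p: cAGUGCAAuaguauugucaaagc
hsa-miR-301b-3p: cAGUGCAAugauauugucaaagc
hsa-miR-454-3p: uAGUGCAAuauugcuuauagggu
The 3p strands printed share 1 seed, and the 5p strand of MIR130B has another. The MIR130B probe set stood at 12.64 on the miR-130b array and at 6.66 on the empty-vector array, so the arrays differed in the direction of their labels. AGO2 mRNA stood at 11.66 with miR-130b and at 11.41 with the empty vector.

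Medians over all probe sets were 7.77 on both arrays. Of 13 lung epithelial markers, 9 lay at or above the median level of named genes (8.64), with the keratin KRT8 at 13.48 with miR-130b and 13.38 with the empty vector, whereas EPCAM, SFTPB, SFTPC and NKX2-1 lay below it. The 13 had a median difference of -0.029, with 6 higher and 7 lower with miR-130b, and ran from the junction genes CLDN1 (-1.16) and CDH1 (-1.12) to KRT19 (0.37) and MUC1 (0.42). Of the markers of other cell types, 7 of 8 fibroblast, 5 of 7 leukocyte and 5 of 6 endothelial genes lay below that level. The leukocyte list includes HBB, a globin gene of red cells and not of leukocytes. The 8 fibroblast markers ran from 4.55 to 9.05 with miR-130b and from 4.46 to 8.74 with the empty vector, and all 8 were higher with miR-130b (median difference 0.35). Their differences ran from DCN (0.091) to FAP (1.71). FAP stood at 6.97 with miR-130b and at 5.26 with the empty vector, both below the median level of named genes. The 6 endothelial markers were also all higher (median difference 0.21). Of all named genes 58.6% were higher, and the lower 5 of 10 equal bins of genes by mean level had median differences between 0.070 and 0.097. The 7 leukocyte markers had a median difference of 0.021 and went both ways. Of the leukocyte markers above the level filter, CD68 stood at 9.96 with miR-130b and at 11.14 with the empty vector (difference -1.18), and CD14 stood at 9.53 with miR-130b and at 8.89 with the empty vector (difference 0.63). The part of these markers in the results below was not tested. In Ago2-bound RNA from a whole culture, fewer expressing cells, less RNA per cell and less of it on Ago2 cannot be told apart.

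Across the 39 measured genes, most differences were small and a minority ran in opposite directions. PDK4 was at least 2-fold higher with miR-130b (1 of 39 genes, against 1.06% of all named genes), and NDRG1 was at least 2-fold lower (1 of 39, against 1.37%). At 1.5-fold, 5 genes were higher (SLC2A3, PDK3, PDK4, EGLN1 and EGLN3, against 3.65% of named genes) and 4 were lower (HK2, CA12, ADM and NDRG1, against 4.65%). When differences were centred on the median of all named genes, 3 were higher and 4 lower. The 9 genes past 1.5-fold made up 23.1% of the measured set, against 8.30% of all named genes. Among genes at or above the median level, 8 of 36 set members (22.2%) passed 1.5-fold, against 10.9% of all such genes. Above the 75th percentile of level the numbers were 7 of 30 members (23.3%), against 9.03%. Members were chosen with earlier results of these data known, so these shares are descriptive only. The members not past 1.5-fold came to 30.

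The median difference over the 39 genes was 0.090, against 0.053 over all named genes and 0.010 over named genes at or above the median level. Of the 39, 26 were higher with miR-130b and 13 lower, where 58.6% of all named genes were higher. At or above the median level, 25 of 36 were higher, against 51.5% of such named genes. Differences beyond 2 probe-set SDs (0.33) were seen in 15 of 39 genes (38.5%), against 23.4% of all named genes and 29.6% of those at or above the median level.

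**Figure D1:**
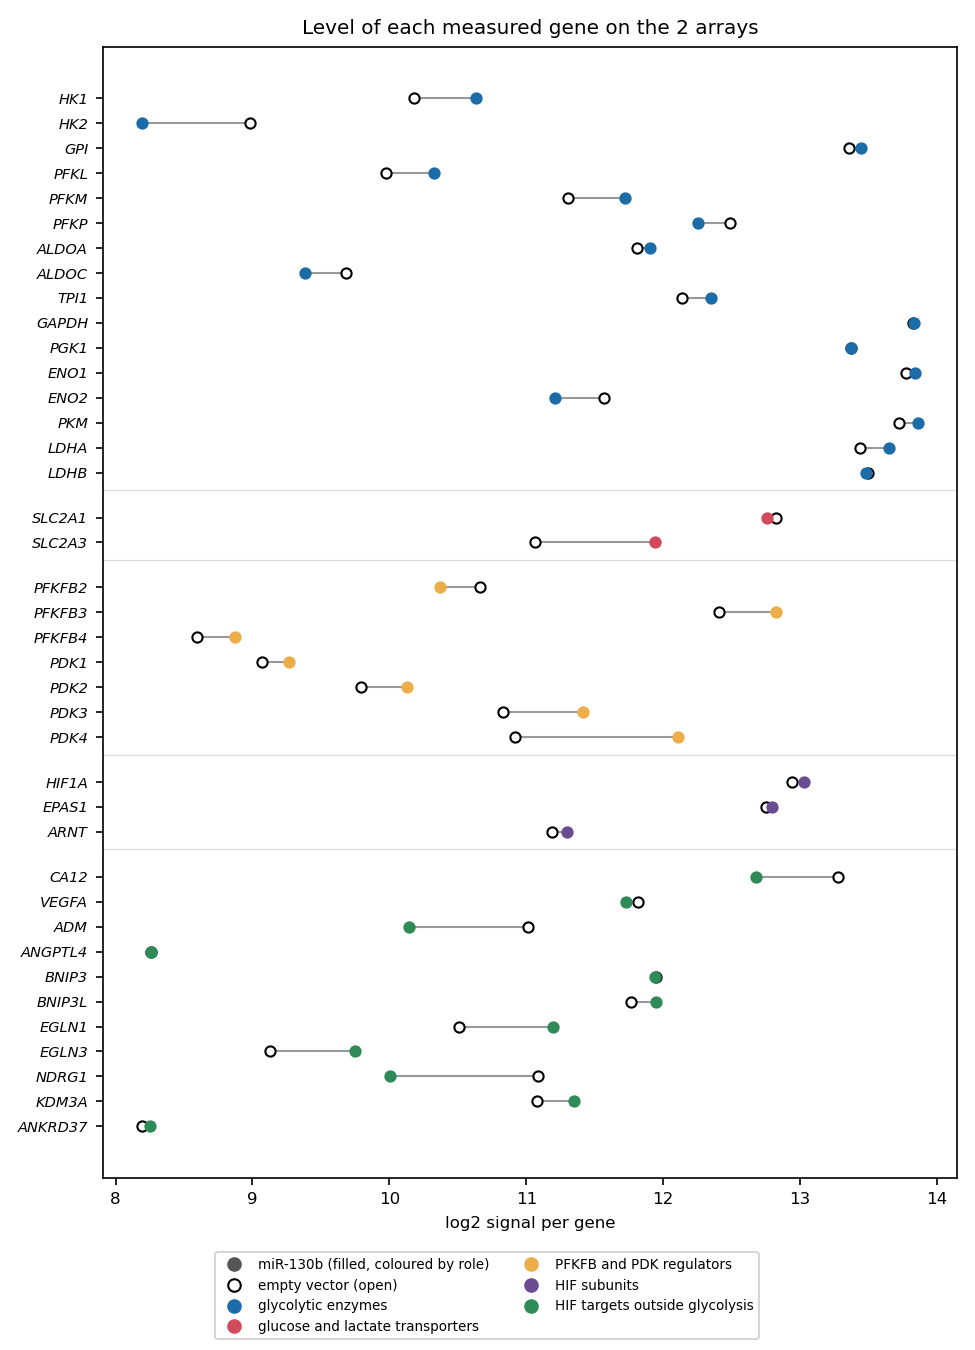
Log2 signal (x axis) of each of the 39 measured genes (rows, grouped by role) on the miR-130b array (filled points, coloured by role) and the empty-vector array (open points), with a grey line joining the values of a gene. Long lines to the right are PDK4 and SLC2A3, long lines to the left are NDRG1, ADM and HK2, and GAPDH, PGK1, BNIP3 and ANGPTL4 have points that nearly coincide.

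Of the glucose transporters, 1 was higher with miR-130b and the other stayed close to its empty-vector level. SLC2A3, the high-affinity glucose transporter GLUT3, stood at 11.94 with miR-130b and at 11.06 with the empty vector. Its difference of 0.88 (1.84-fold higher) lay at the 98.4th percentile of all named genes. SLC2A1, the basal glucose transporter GLUT1, stood at 12.76 with miR-130b and at 12.83 with the empty vector, a difference of -0.071. The difference of SLC2A3 therefore exceeded that of SLC2A1 by 0.95. The probe-set SD of 0.16 corresponds to 0.23 for a gap between genes. That value covers disagreement between probe sets only and is not the spread of gaps among different genes.

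The 16 measured glycolytic enzymes had a median difference of 0.077, with 11 higher and 5 lower. None was 2-fold different, and HK2 was the 1 enzyme past 1.5-fold. The first step of the pathway, phosphorylation of glucose by hexokinase, had isozymes on both sides. HK1, the broadly expressed isozyme, stood at 10.64 with miR-130b and at 10.18 with the empty vector, a difference of 0.45 (1.37-fold higher). HK2, the isozyme linked with growth and with tumours, stood at 8.19 with miR-130b and at 8.98 with the empty vector, a difference of -0.79 (1.73-fold lower). These differences were 1.25 apart. HK2 was below the level filter on its mean. Its miR-130b value was under the highest of 361 olfactory receptor genes on that array (8.21), a set taken as a rough guide to background. Whether any of those genes is expressed in these cells was not tested. The median of those genes was 5.86 on the miR-130b array.

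The isomerase GPI, which makes fructose phosphate, stood at 13.45 with miR-130b and at 13.35 with the empty vector. Phosphofructokinase, the committed step, showed unequal subunits. PFKM, the muscle-type subunit, stood at 11.72 with miR-130b and at 11.31 with the empty vector (difference 0.42), and PFKL, the liver-type subunit, stood at 10.32 with miR-130b and at 9.97 with the empty vector (difference 0.35). PFKP, the platelet-type subunit, stood at 12.26 with miR-130b and at 12.49 with the empty vector (difference -0.23). The gap was 0.65 between PFKM and PFKP and 0.58 between PFKL and PFKP.

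Enzymes of the middle steps all lay within 1.5-fold. ALDOA, the main aldolase of most tissues, stood at 11.90 with miR-130b and at 11.81 with the empty vector, and ALDOC, the brain-type aldolase, stood at 9.39 with miR-130b and at 9.68 with the empty vector, a difference of -0.30. TPI1, which interconverts the triose phosphates, stood at 12.35 with miR-130b and at 12.14 with the empty vector as the mean of its probe sets, which gave differences of 0.29 and 0.13. GAPDH, which oxidises glyceraldehyde phosphate, stood at 13.84 with miR-130b and at 13.82 with the empty vector. PGK1, which yields the first ATP of the pathway, stood at 13.37 on both arrays. The 5 probe sets shared by PGAM1, a phosphoglycerate mutase, and its close copy PGAM4 had differences between 0.27 and 0.32, and their values cannot be split between these genes. A pair of these 5 held identical values.

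At the end of the pathway, ENO1, the common enolase, stood at 13.84 with miR-130b and at 13.78 with the empty vector. ENO2, the neuronal enolase, stood at 11.21 with miR-130b and at 11.57 with the empty vector, a difference of -0.36 and 0.42 below that of ENO1. PKM, pyruvate kinase, stood at 13.86 with miR-130b and at 13.72 with the empty vector. LDHA, the lactate dehydrogenase subunit that favours lactate formation, stood at 13.65 with miR-130b and at 13.44 with the empty vector (difference 0.22). LDHB, its partner subunit, stood at 13.48 with miR-130b and at 13.50 with the empty vector. The gap between LDHA and LDHB, 0.23, was as large as the probe-set SD of such a gap. All pairs of genes whose differences are set against each other in these results were picked after their values were seen.

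The small differences among the enzymes go with high levels. GPI, GAPDH, PGK1, ENO1, PKM, LDHA and LDHB had a mean level of 13 or more, where the deposited values end at 14.17, and their differences ran from -0.015 to 0.22. Of all 170 named genes at that level 0.588% differed by 1.5-fold or more, with a median size of difference of 0.12. Of 5376 named genes with a mean level of 10 to 13, 9.78% did, with a median size of 0.18. The cut at 13 was not planned. Just under it, each with a mean of 12.98, lay CA12 (difference -0.60) and HIF1A (difference 0.085). Whether high signals are compressed on these arrays was not tested. Some of these enzymes, GAPDH among them, have processed pseudogenes, and how far the probe sets separate these from the gene was not tested either.

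The 7 PFKFB and PDK regulators had the largest median difference of any role with over 2 measured genes, 0.33, with 6 higher and 1 lower. The 4 PDK genes were all higher with miR-130b, and they differed in size. PDK4, a kinase known for its induction by fasting, stood at 12.11 with miR-130b and at 10.92 with the empty vector. Its difference of 1.19 (2.28-fold higher) was the largest in the whole set and lay at the 99.4th percentile of all named genes. PDK3 stood at 11.42 with miR-130b and at 10.83 with the empty vector, a difference of 0.59 (1.504-fold), just past the 1.5-fold threshold. PDK2, the widely expressed member, stood at 10.13 with miR-130b and at 9.79 with the empty vector (difference 0.33). PDK1, the member best known as a HIF target, stood at 9.27 with miR-130b and at 9.07 with the empty vector (difference 0.20), the smallest of the 4. The difference of PDK4 exceeded that of PDK1 by 0.99.

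Among the PFKFB enzymes the signs were mixed. PFKFB3, the isozyme with the strongest kinase bias and so an activator of glycolysis, stood at 12.82 with miR-130b and at 12.41 with the empty vector, a difference of 0.42 (1.33-fold higher). PFKFB4, a HIF-inducible isozyme, stood at 8.87 with miR-130b and at 8.60 with the empty vector, a difference of 0.28. PFKFB2, the heart-type isozyme, stood at 10.37 with miR-130b and at 10.66 with the empty vector, a difference of -0.29, so that PFKFB3 and PFKFB2 were 0.71 apart.

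**Figure D2:**
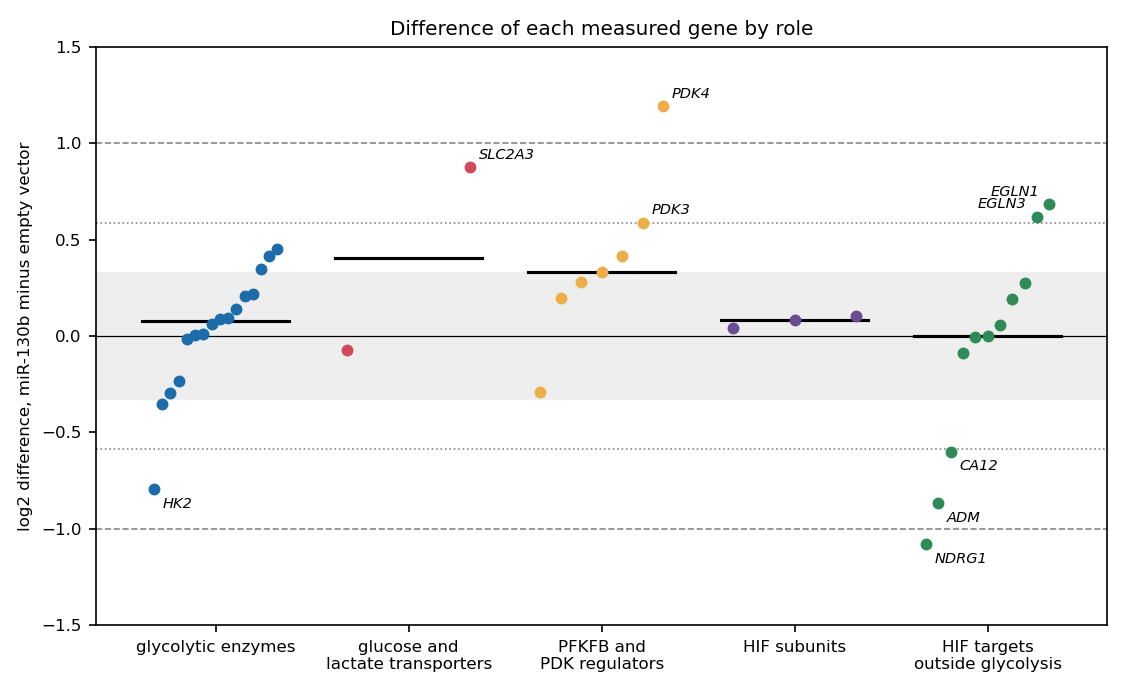
Log2 difference, miR-130b minus empty vector (y axis), of each measured gene (points) by role (x axis). Black bars are role medians, the grey band covers 2 probe-set SDs (0.33) either side of 0, dotted lines mark 1.5-fold and dashed lines 2-fold. PDK4 is above the upper dashed line, NDRG1 below the lower one, and the HIF subunits are all inside the band.

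The mRNAs of the HIF subunits were close to equal on the arrays, with differences between 0.042 and 0.11. HIF1A, the oxygen-regulated subunit present in most cells, stood at 13.03 with miR-130b and at 12.94 with the empty vector. EPAS1, which encodes the related subunit HIF-2alpha, stood at 12.79 with miR-130b and at 12.75 with the empty vector. ARNT, the constitutive partner of both, stood at 11.30 with miR-130b and at 11.19 with the empty vector. HIF alpha subunits are controlled mainly as proteins, which arrays do not measure.

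The 11 measured HIF targets outside glycolysis had a median difference of -0.0019 (0.017 after quantile normalization and 0.018 after cyclic loess) and went both ways. Of these, 5 of 11 passed 1.5-fold, against 8.30% of all named genes, 2 higher and 3 lower. EGLN3 no longer passed after centring, nor did CA12 after quantile normalization or cyclic loess. The higher ones were prolyl hydroxylases, the enzymes that mark HIF alpha subunits for destruction. EGLN1 (PHD2), the main one, stood at 11.20 with miR-130b and at 10.51 with the empty vector, a difference of 0.69 (1.61-fold higher). EGLN3 (PHD3) stood at 9.75 with miR-130b and at 9.13 with the empty vector, a difference of 0.62 (1.54-fold higher).

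The lower ones encode proteins outside the oxygen sensor. NDRG1, a stress-responsive gene, stood at 10.003 with miR-130b and at 11.08 with the empty vector, a difference of -1.08 (2.11-fold lower) at the 1.08th percentile of all named genes. ADM, the vasodilator peptide adrenomedullin, stood at 10.14 with miR-130b and at 11.01 with the empty vector, a difference of -0.87 (1.82-fold lower). CA12, a membrane carbonic anhydrase that regulates pH, stood at 12.68 with miR-130b and at 13.28 with the empty vector, a difference of -0.60 (1.52-fold lower), close to the threshold.

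The other HIF targets differed by less. KDM3A, a histone demethylase, stood at 11.35 with miR-130b and at 11.08 with the empty vector (difference 0.27). The mitophagy receptor BNIP3L stood at 11.95 with miR-130b and at 11.76 with the empty vector, and its relative BNIP3 stood at 11.94 with miR-130b and at 11.95 with the empty vector. VEGFA, the angiogenic growth factor, stood at 11.73 with miR-130b and at 11.82 with the empty vector. ANGPTL4, an inhibitor of lipoprotein lipase, stood at 8.26 on both arrays, and ANKRD37, an ankyrin-repeat gene, stood at 8.25 with miR-130b and at 8.19 with the empty vector. Both lay below the median level of named genes, so that with HK2 3 of the 39 genes were below that level.

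**Figure D3:**
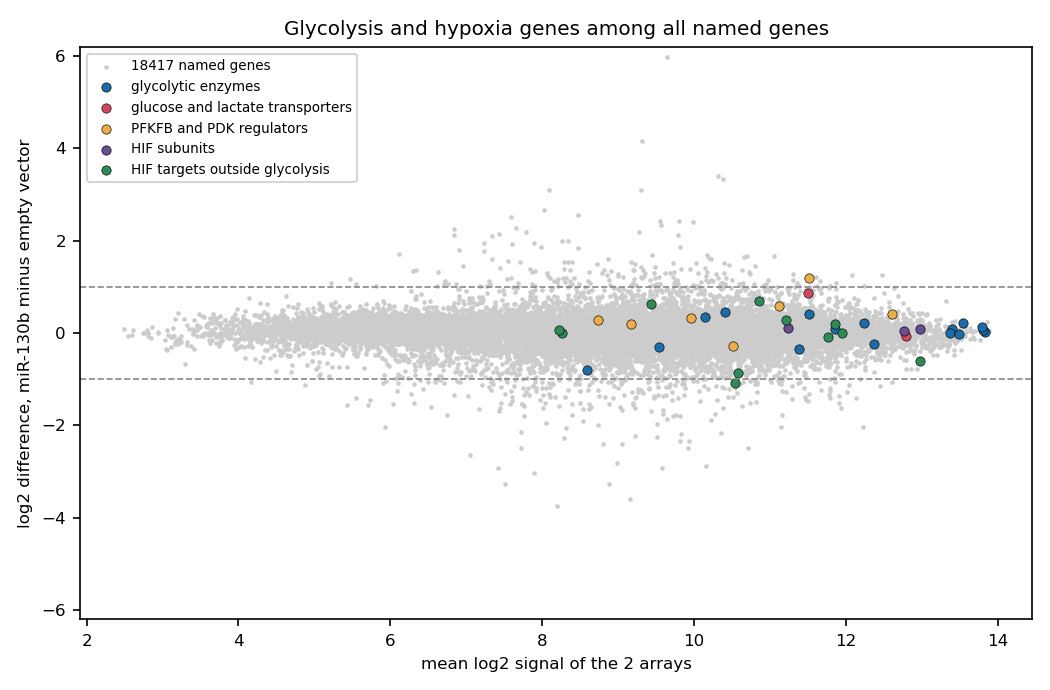
Mean log2 signal of the arrays (x axis) against the log2 difference, miR-130b minus empty vector (y axis), for 18417 named genes (grey) and the 39 measured glycolysis and hypoxia genes (coloured by role). Dashed lines mark 2-fold, and only PDK4 (1.19) and NDRG1 (-1.08) of the coloured points are outside them.

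HIF binds DNA at the hypoxia-response core, ACGTG or GCGTG. Promoter windows from RefSeq (GRCh38.p14), which run from 250 bases before to 50 after a gene's start, were matched for 37 of the 43 genes, SLC2A3, SLC16A1, PFKFB2, VEGFA, BNIP3L and NDRG1 being the others. Several genes have more than 1 window, and the core was searched on both strands, so CACGTG counts on each. The core was found in 44 of the 67 windows (65.7%), against 48.4% of 35116 windows of the same length, and ACGTG alone in 25 of 67 (37.3%), against 21.4%. Of the genes past 1.5-fold with a window, HK2, CA12, ADM, PDK3 and EGLN1 held the core and PDK4 and EGLN3 did not, which says only that these letters are not in this window.

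The windows of ADM (lower with miR-130b), EGLN1 (higher) and BNIP3 and PGK1 (differences near 0) are shown because HIF targets with a core in this window had all of these outcomes. They lie at chr11:10304823-10305122 (plus strand), chr1:231422238-231422537 (minus strand), chr10:131981874-131982173 (minus strand) and chrX:78103998-78104297 (plus strand), with the core in capitals on either strand.
ADM: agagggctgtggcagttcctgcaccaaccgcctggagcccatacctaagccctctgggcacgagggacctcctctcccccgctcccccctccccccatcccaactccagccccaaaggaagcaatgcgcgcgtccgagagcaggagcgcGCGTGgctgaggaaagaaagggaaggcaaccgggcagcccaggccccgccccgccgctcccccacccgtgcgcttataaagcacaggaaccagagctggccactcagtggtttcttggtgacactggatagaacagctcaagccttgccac
EGLN1: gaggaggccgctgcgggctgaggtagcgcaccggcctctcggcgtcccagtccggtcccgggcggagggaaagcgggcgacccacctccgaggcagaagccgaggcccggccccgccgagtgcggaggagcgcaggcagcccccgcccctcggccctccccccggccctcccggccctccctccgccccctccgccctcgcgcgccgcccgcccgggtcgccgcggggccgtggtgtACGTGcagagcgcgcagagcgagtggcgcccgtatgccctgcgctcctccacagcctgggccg
BNIP3: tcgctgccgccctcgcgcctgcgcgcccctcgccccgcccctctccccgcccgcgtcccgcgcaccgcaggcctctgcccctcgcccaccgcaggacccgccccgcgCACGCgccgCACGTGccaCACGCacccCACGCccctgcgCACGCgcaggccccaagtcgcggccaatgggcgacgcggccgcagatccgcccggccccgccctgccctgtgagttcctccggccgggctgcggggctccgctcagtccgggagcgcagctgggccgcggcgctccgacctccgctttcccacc
PGK1: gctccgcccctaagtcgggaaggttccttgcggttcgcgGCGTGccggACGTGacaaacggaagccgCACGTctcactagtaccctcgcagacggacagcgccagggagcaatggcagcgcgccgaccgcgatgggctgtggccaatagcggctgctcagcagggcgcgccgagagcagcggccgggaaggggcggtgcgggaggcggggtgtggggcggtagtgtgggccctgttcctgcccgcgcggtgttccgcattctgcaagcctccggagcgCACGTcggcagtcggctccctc
ADM and EGLN1 each hold 1 core match in this window, PGK1 holds 4 and BNIP3 holds 6. A match describes letters and does not show that HIF was bound.

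Other genes of glucose metabolism and the hypoxia response were taken from 8 further lists with 125 measured genes. Past 2-fold with miR-130b there were 2 higher (against 1.06% of all named genes) and 6 lower (against 1.37%). These counts include SLC2A12, LOX and TMEM45A, which each had a value under the 97.5th percentile of olfactory receptor genes on its array. The median difference of the 125 genes was 0.029.

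HKDC1, a further hexokinase-domain gene, stood at 11.12 with miR-130b and at 12.76 with the empty vector, a difference of -1.63 (3.11-fold lower). It was the only one of 14 other glycolytic isozymes past 1.5-fold, and 10 of the 14 lay below the level filter. ADPGK, a glucokinase that uses ADP, had the highest difference of that list at or above the level filter, 0.29. Among 15 other sugar and monocarboxylate transporters, SLC16A4 was 1.55-fold lower and SLC2A13, a proton-coupled inositol transporter, was 1.18-fold higher. SLC2A12 (GLUT12), picked once its values were known, stood at 8.80 with miR-130b and at 6.52 with the empty vector. No fold is given for it, because its empty-vector value was under the 97.5th percentile of olfactory receptor genes on that array (7.41).

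On the mitochondrial side, none of the 10 genes of pyruvate entry passed 1.5-fold, and their median difference was 0.10. PDP1, the phosphatase that reverses the action of the PDKs, stood at 12.58 with miR-130b and at 12.19 with the empty vector, a difference of 0.39. PDHB, a subunit of the dehydrogenase itself, had the lowest difference at or above the filter, -0.097. The 13 tricarboxylic acid cycle genes all lay within 1.5-fold, from SUCLG1, a subunit of succinyl-CoA ligase, at -0.24 to OGDH, the oxoglutarate dehydrogenase, at 0.21. The 8 pentose phosphate genes also lay within 1.5-fold, with the isomerase RPIA at -0.16 and the epimerase RPE at 0.11.

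Among 16 genes of gluconeogenesis and glycogen, PCK2, the mitochondrial phosphoenolpyruvate carboxykinase, stood at 9.57 with miR-130b and at 11.03 with the empty vector, a difference of -1.46 (2.75-fold lower). PPP1R3C, a glycogen-targeting phosphatase subunit, was 1.502-fold higher (0.59). None of the 14 regulators of HIF passed 1.5-fold, and they ran at or above the filter from ARNT2, a paralogue of ARNT, at -0.28 to CITED2, which competes with HIF for its coactivator, at 0.40.

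The 35 further hypoxia-induced genes had a median difference of -0.0048, with 1 gene past 2-fold upwards and 4 past it downwards, where all named genes had 1.06% and 1.37%. The downward count includes LOX and TMEM45A, whose low values are given below. STC1, the glycoprotein hormone stanniocalcin, stood at 10.41 with miR-130b and at 9.08 with the empty vector, a difference of 1.33 (2.51-fold higher). TGFA, a ligand of the epidermal growth factor receptor, stood at 8.22 with miR-130b and at 9.88 with the empty vector, a difference of -1.66 (3.16-fold lower). Its miR-130b value was only just above the highest olfactory receptor gene on that array (8.21). The others were picked once their values were known. STC2, the paralogue of STC1, stood at 10.07 with miR-130b and at 11.56 with the empty vector. LOX, a collagen cross-linking enzyme, stood at 7.41 with miR-130b and at 8.79 with the empty vector, and TMEM45A stood at 6.58 with miR-130b and at 8.28 with the empty vector. The miR-130b values of LOX and TMEM45A were under the 97.5th percentile of olfactory receptor genes on that array (7.46), so no fold is given for them.

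**Figure D4:**
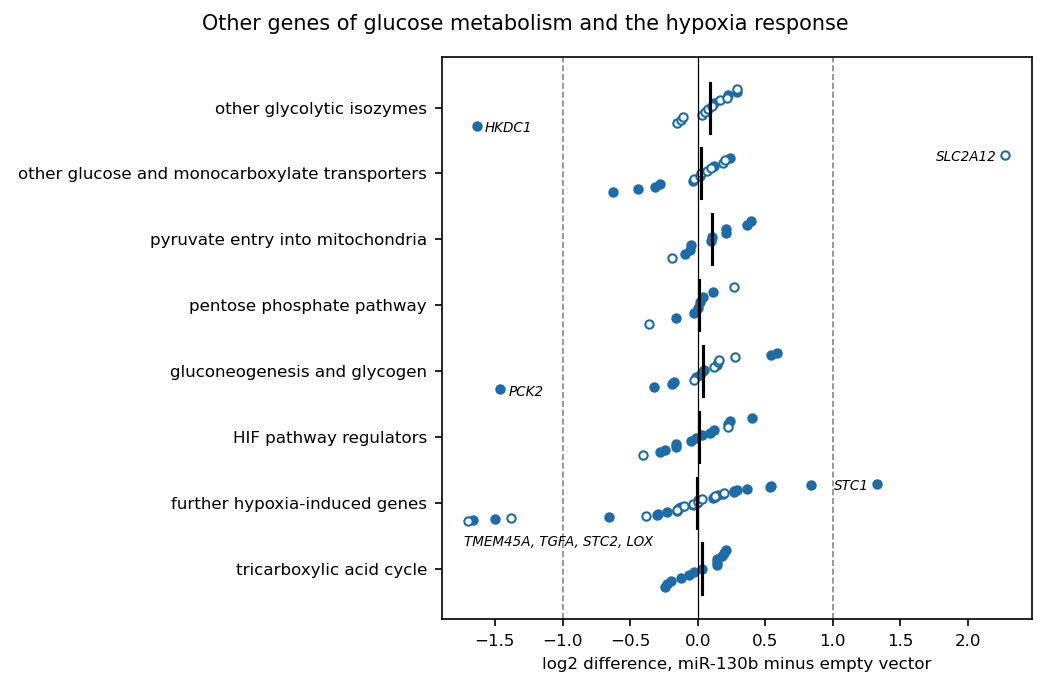
Log2 difference, miR-130b minus empty vector (x axis), of 125 measured genes in 8 other lists (rows). Filled points have a mean at or above the median level of named genes, open points a lower one, black bars are list medians and dashed lines mark 2-fold. Genes outside the dashed lines are labelled, and HKDC1 (-1.63), PCK2 (-1.46), TGFA (-1.66) and STC1 (1.33) are the ones among them with values given as differences in the text. For SLC2A12, LOX and TMEM45A 1 of the values is at the level of olfactory receptor genes, so their positions are uncertain.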

How the data were processed

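RNA precipitated with an anti-Ago2 antibody was measured on 2 Affymetrix arrays of biotin-labelled cDNA, per the labels' protocols. The authors deposited log2 signals for 33297 probe sets per array. The log2 unit was inferred from the values (1.95 to 14.17), and their software, background correction and normalization are not stated in the sources used here. Both arrays have nearly equal distributions, so a difference is set against the rest of the array. The array number limits the precision.

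Probe sets were named through the supplied platform annotation: 19460 had 1 symbol, 1754 several (left out) and 12083 none. Symbols were updated through Entrez identifiers (19429 matched RefSeq), and probe sets were averaged per gene, which gave 18417 genes. No gene was removed from the main values. The level filter is the median of the gene means. Without replicates there was no test, and genes are described by differences and counts past 2-fold and 1.5-fold, each beside the share of all genes. No detection calls were used. The counting was tested on simulated data. Members and lists were chosen with earlier results of these data known. All members are named, with the extreme genes of each other list at or above the filter. Others are marked where they appear. Alternatives were quantile normalization and cyclic loess (limma 3.58.1, R 4.3.3), centring, the brightest probe set, level filters and the mean. Python 3.11.15 and pandas 2.3.3 were used.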

Additional observations from a re-analysis of the deposited data

How the results depend on the processing

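Of the 39 single-gene differences, none moved by as much as the probe-set SD (0.16), and none past 1.5-fold changed sign, under quantile normalization (largest shift 0.038) or cyclic loess (0.028). Centring takes the same 0.053 from every difference, so it could not have produced either outcome. The level filters leave 36 and 30 of the genes and cannot change a gene's difference, and the brightest probe set can change TPI1 only (0.078). The counts of 1 gene 2-fold higher and 1 gene 2-fold lower were the same under those settings and became 5 and 4 at 1.5-fold. At 1.5-fold, centring left out PDK3 and EGLN3 (3 higher, 4 lower), and quantile normalization and cyclic loess left out CA12 (5 higher, 3 lower). The median of the PFKFB and PDK regulators was 0.50 with the filter at the 75th percentile, which leaves 4 of the 7 genes. The other role medians stayed within the probe-set SD of their main value, and that of the HIF targets outside glycolysis lay between -0.074 (the mean) and 0.018 (cyclic loess). No paired analysis was possible because each group had 1 array.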
